A study of Mus musculus with 4 samples.

Results

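The Nodal pathway genes described here are 9 listed members, namely the ligands Nodal and Gdf3, the antagonists Lefty1, Lefty2 and Cer1, the co-receptor Tdgf1, the receptor Acvr2b, the signal transducer Smad2 and its DNA-binding partner Foxh1. They were taken by symbol from 17097 genes named on the arrays, and the list was drawn up with earlier results of these data known. Of the 9, 8 were paired with a probe set, 16 probe sets in all, and Tdgf1 was not analysed here.

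Mouse embryonic stem cells were grown in hanging drops and then in suspension, where they form embryoid bodies, aggregates of differentiating cells. On day 4 the bodies were dissociated and the cells sorted with an antibody against Flk1, the VEGF receptor encoded by Kdr that marks mesoderm with blood and endothelial potential. The groups were Snai1 knockout (KO) Flk1+, control (F/F) Flk1+, KO Flk1- and F/F Flk1-, with 1 Affymetrix array each. Snai1 encodes a transcriptional repressor of epithelial genes. The KO Flk1- sample is given as day 4 in its description and as day 5 in its source name, so every value from that array carries this doubt. The sources used here do not say how many clones or cultures stand behind each line.

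Nodal is a secreted ligand of the TGF-beta family. It acts through type I and type II activin receptors and an EGF-CFC co-receptor, which lead to phosphorylation of Smad2 and Smad3. These enter the nucleus with Smad4 and are brought to DNA by partners such as Foxh1. Among the genes switched on are Nodal itself and the Lefty genes, whose products block the ligand or its co-receptor, so that the pathway drives both its own activity and its own brake. In the early mouse embryo it acts in the epiblast, in the anterior visceral endoderm, where Cer1 and Lefty1 are made, and in the primitive streak.

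The promoters of Nodal and Cer1 are shown because these members were both 2-fold or more higher in KO Flk1+ cells and because Snai1 and other Snail proteins bind the E-box CAGGTG. Promoter sequences were matched for 4 of the 9 members. The windows are from RefSeq (GRCm38.p6) and run from 250 bases before the gene's start to 50 after it, chr4:82885102-82885401 on the minus strand for Cer1 and chr10:61417722-61418021 on the plus strand for Nodal. Capitals mark CAGGTG on either strand.
Cer1: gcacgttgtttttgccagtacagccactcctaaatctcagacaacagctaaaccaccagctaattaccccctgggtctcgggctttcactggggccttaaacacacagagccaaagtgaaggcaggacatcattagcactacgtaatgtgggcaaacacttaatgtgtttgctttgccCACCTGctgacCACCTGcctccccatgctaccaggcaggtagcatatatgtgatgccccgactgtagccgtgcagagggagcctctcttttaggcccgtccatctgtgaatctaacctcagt
Nodal: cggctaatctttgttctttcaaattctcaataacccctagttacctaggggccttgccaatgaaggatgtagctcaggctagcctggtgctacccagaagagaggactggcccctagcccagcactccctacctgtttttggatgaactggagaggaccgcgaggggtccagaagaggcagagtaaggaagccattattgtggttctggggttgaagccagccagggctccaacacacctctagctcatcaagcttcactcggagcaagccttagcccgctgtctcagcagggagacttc
The Cer1 window held 2 matches to CAGGTG, 72 and 61 bases before the start, and the Nodal window held 0. Of 32851 promoter windows of this length, 20.2% held at least 1. The Foxh1-type motif TGTNNATT, present in 12.2% of windows, and the Smad palindrome GTCTAGAC, present in 0.213%, had 0 matches in both windows. The Smad box CAGACA, present in 21.0% of windows, matched 1 time in the Cer1 window, 213 bases before the start, and 0 times in the Nodal window. 5 further motifs were searched on both strands. CCAAT, present in 37.4% of windows, matched 1 time in the Nodal window, 194 bases before the start, and ACAAAG, present in 18.7%, matched 1 time in the Nodal window, 242 bases before it, and both had 0 matches in the Cer1 window. TGTGNATT, which is contained in TGTNNATT, TATAAA and GGCGC, present in 3.60%, 13.6% and 36.9% of windows, had 0 matches in both. None of these matches in the Nodal and Cer1 windows overlapped a match to another of the 9 motifs. A match is only a match of letters and says nothing of binding.

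Expression is given as the log2 values the authors deposited, and a difference of 1 is a 2-fold difference. Each group has a single array, so spread between replicates was not measured and no comparison was tested. The number of arrays is what limits precision. A floor at 3.19, the 40th percentile of all gene values, separated genes with signal from those without. A gene was tested in a comparison where it lay above the floor on at least 1 of the arrays compared, and a member was called where it was then 2-fold or more apart. As a yardstick, the differences from the 2 brightest probe sets of a gene scattered with an SD of 0.21 to 0.29 over the 4 comparisons (4122 genes). This scatter holds none of the variation between cultures. Between 10195 and 10302 genes per array exceeded the floor. The Gapdh control probe sets, a guide to RNA quality, had a 3' signal above the 5' signal by between 1.47 (KO Flk1+) and 2.05 (F/F Flk1+). Kdr was at 9.03 in KO Flk1+ and 3.88 in KO Flk1- cells and at 8.92 in F/F Flk1+ and 4.55 in F/F Flk1- cells, as sorted. Snai1 was below the floor on all 4 arrays, at 1.88 in KO Flk1+ and 2.56 in F/F Flk1+ cells and at 1.94 in KO Flk1- and 2.42 in F/F Flk1- cells, so the genotype labels were not checked by it.

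In Flk1+ cells Cer1, Lefty1 and Nodal were 2-fold or more higher in the KO, and no member was 2-fold lower. That is 3 of the 7 members tested, against 0.873% of 10655 genes that were 2-fold higher and 0.976% that were 2-fold lower. In Flk1- cells Lefty1 alone passed 2-fold, 1 of 8 members tested against 0.389% of 10533 genes, and 0 of 8 were 2-fold lower, against 0.949%. Nodal, Lefty2, Cer1 and Gdf3 were 1.5-fold or more higher there, so 5 of 8 members passed 1.5-fold, against 2.97% of genes. The receptor Acvr2b, Smad2 and Foxh1 differed by at most 0.20 in size between genotypes in both fractions, by their brightest probe sets. The sorted cells were measured in bulk, so more cells of a type and more RNA per cell cannot be told apart.

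**Figure D1:**
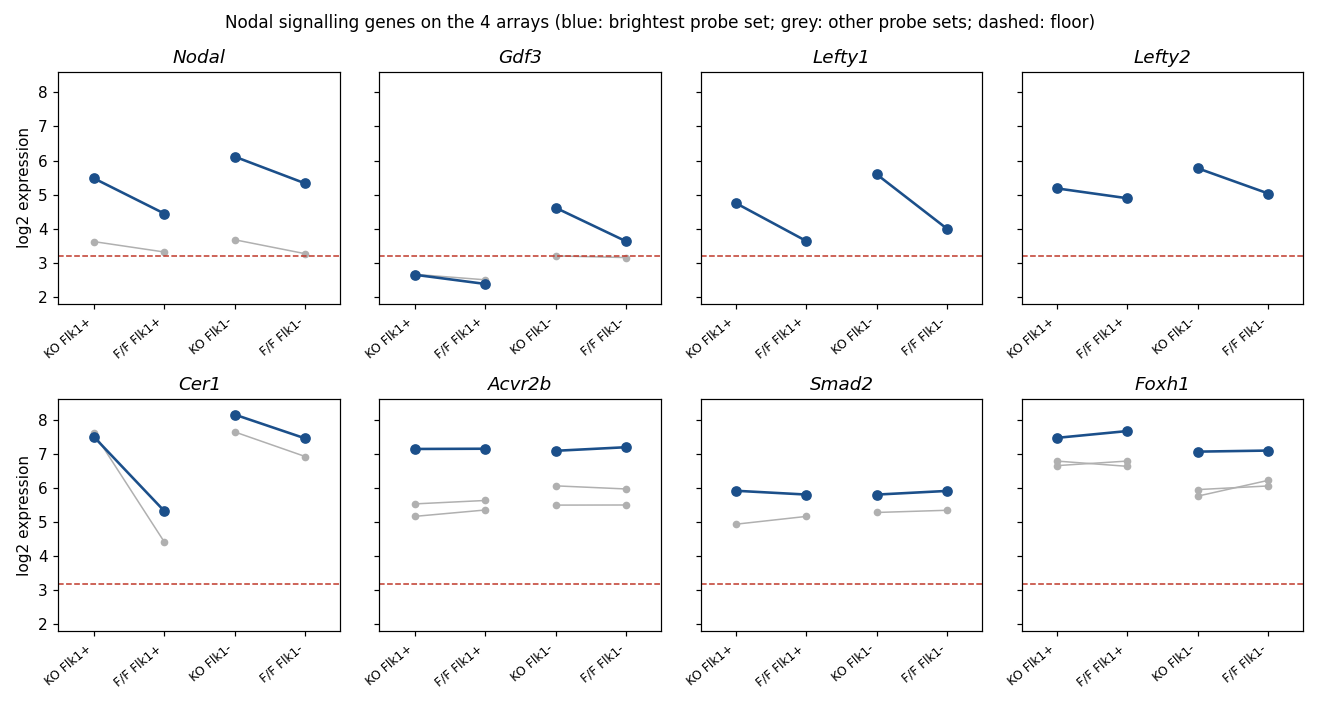
Log2 expression (vertical axis) of the 8 measured members on the 4 arrays (horizontal axis), with 1 array per group. Blue points are the probe set with the highest mean, grey points the other probe sets, lines join KO and F/F of one fraction, and the dashed line is the floor at 3.19. Nodal, Lefty1, Lefty2 and Cer1 are higher in KO than in F/F cells in both fractions, while Acvr2b and Smad2 lie nearly level.

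Nodal, the ligand, had log2 values of 5.48 in KO Flk1+ and 4.45 in F/F Flk1+ cells, and 6.12 in KO Flk1- and 5.33 in F/F Flk1- cells. Both KO arrays lay above both F/F arrays, although KO Flk1+ and F/F Flk1- were only 0.15 apart, within the scatter between probe sets for that pair (SD 0.25). The genotype difference was 1.03 in Flk1+ cells (2.05-fold), with 89 of 10655 genes further up, and 0.78 in Flk1- cells (1.72-fold), with 114 of 10533 genes further up. A second, dimmer Nodal probe set lay just above the floor on every array, from 3.27 to 3.68, and gave smaller differences of the same sign, 0.31 and 0.41. The sort difference of Nodal was -0.63 in KO and -0.88 in F/F cells by the bright probe set, and -0.05 and 0.05 by the dim one. With the mean of the 2 probe sets Nodal differed by 0.67 between genotypes in Flk1+ cells and was no longer 2-fold apart.

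Gdf3, a TGF-beta family ligand of stem cells and epiblast that is related to Nodal, had its signal in the Flk1- fraction. It was at 2.66 in KO Flk1+ and 2.39 in F/F Flk1+ cells, both below the floor, and at 4.62 in KO Flk1- and 3.63 in F/F Flk1- cells. Its genotype difference in Flk1- cells was 0.98, just short of 2-fold, and no fold is given in Flk1+ cells. Set against the floor, Gdf3 was by this brighter probe set at least 2.69-fold lower in KO Flk1+ than in KO Flk1- cells. In F/F cells it was at least 1.36-fold lower in the Flk1+ than in the Flk1- fraction. The other Gdf3 probe set was above the floor in KO Flk1- cells only, at 3.21, and its genotype difference in Flk1- cells was 0.05. Its sort difference in KO cells was -0.54, short of 2-fold, and both of its F/F values were below the floor.

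Among the antagonists, Lefty1 had the largest genotype difference of the members in Flk1- cells. This feedback inhibitor of Nodal was at 4.76 in KO Flk1+ and 3.65 in F/F Flk1+ cells, and at 5.60 in KO Flk1- and 4.00 in F/F Flk1- cells. The F/F arrays held the lower values in both fractions, and even KO Flk1+ was above F/F Flk1-. The genotype difference was 1.11 in Flk1+ cells (2.16-fold), where 74 of 10655 genes were further up, and 1.60 in Flk1- cells (3.03-fold), where only 3 of 10533 genes were further up. Lefty1 has 1 named probe set, so no second reading was compared.

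Lefty2, the second Lefty gene and a target of Nodal in mesoderm, was at 5.19 in KO Flk1+ and 4.90 in F/F Flk1+ cells, and at 5.78 in KO Flk1- and 5.04 in F/F Flk1- cells. KO Flk1- stood apart from the other 3 arrays, which lay within 0.29 of each other. Its genotype difference was 0.29 in Flk1+ cells, near the scatter between probe sets (SD 0.24), and 0.74 in Flk1- cells (1.67-fold). It too has 1 named probe set.

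Cer1, a secreted antagonist of Nodal and BMP made in anterior visceral and definitive endoderm, was the member furthest apart. It was at 7.50 in KO Flk1+ and 5.32 in F/F Flk1+ cells, and at 8.15 in KO Flk1- and 7.45 in F/F Flk1- cells. F/F Flk1+ was the low array, and KO Flk1+ and F/F Flk1- were 0.05 apart. The genotype difference was 2.18 in Flk1+ cells (4.52-fold), with 1 of 10655 genes further up, and 0.70 in Flk1- cells (1.62-fold). The second probe set of Cer1 gave 3.20 in Flk1+ cells (9.16-fold) and 0.72 in Flk1- cells. On that probe set KO Flk1+ was at 7.62 and F/F Flk1+ at 4.42, with 7.64 in KO Flk1- and 6.92 in F/F Flk1- cells, so the fractions of the KO were level and those of F/F were not.

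Acvr2b, a type II activin receptor that also binds Nodal, was nearly level at 7.14 in KO Flk1+ and 7.15 in F/F Flk1+ cells, and at 7.09 in KO Flk1- and 7.19 in F/F Flk1- cells. The 4 values spanned 0.11. Its 2 dimmer probe sets were lower in Flk1+ cells, with sort differences of -0.53 and -0.33 in KO and of -0.34 and -0.15 in F/F cells, and their genotype differences lay between -0.19 and 0.09. Smad2, the receptor-activated transducer, was at 5.92 in KO Flk1+ and 5.80 in F/F Flk1+ cells, and at 5.80 in KO Flk1- and 5.91 in F/F Flk1- cells, a span of 0.11. Its second probe set had genotype differences of -0.23 and -0.06 in Flk1+ and Flk1- cells.

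Foxh1, the forkhead protein that brings Smad complexes to DNA, differed more by sort than by genotype in its brightest probe set. It was at 7.46 in KO Flk1+ and 7.66 in F/F Flk1+ cells, and at 7.06 in KO Flk1- and 7.09 in F/F Flk1- cells. Both Flk1+ arrays were above both Flk1- arrays, the reverse of Nodal within each genotype. Its sort difference was 0.40 in KO and 0.57 in F/F cells, and over the 3 Foxh1 probe sets it ranged from 0.40 to 1.03 in KO and from 0.41 to 0.73 in F/F cells. The genotype differences of the 3 probe sets did not share a sign in Flk1+ cells, where they ranged from -0.20 to 0.15. In Flk1- cells they ranged from -0.46 to -0.03.

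**Figure D2:**
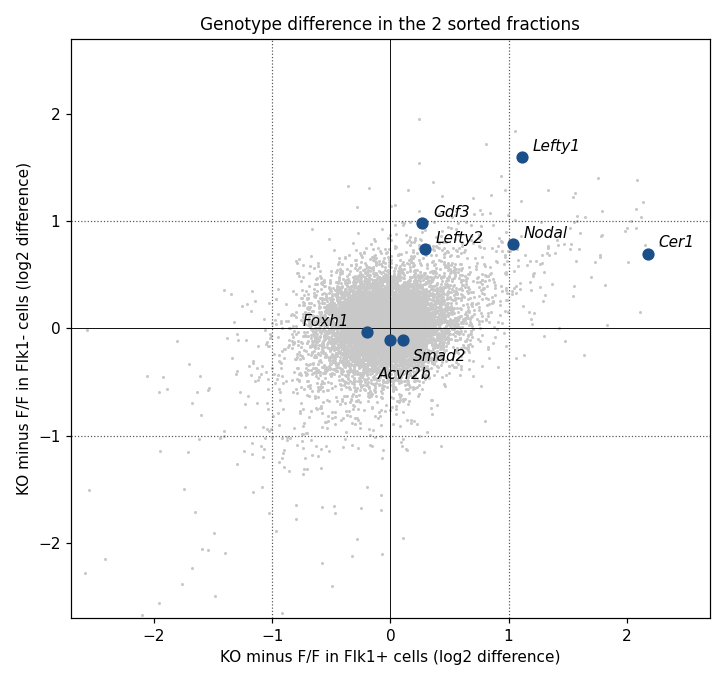
KO minus F/F log2 differences in Flk1+ cells (horizontal axis) and in Flk1- cells (vertical axis) for genes above the floor on at least 1 array (grey, 10955 genes, of which 10 lie outside the axes) and for the 8 members (blue). Dotted lines mark 2-fold. Lefty1 lies beyond 2-fold on both axes, Cer1 and Nodal on the horizontal axis only, and Acvr2b, Smad2 and Foxh1 lie near the origin.

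The order of the 4 arrays was the same for Nodal, Lefty1, Lefty2 and Cer1. KO Flk1- was highest, followed by KO Flk1+, F/F Flk1- and F/F Flk1+, an order found in 4.75% of 10955 genes. For Nodal, Lefty2 and Cer1 the middle step was within the scatter between probe sets (SD 0.25), so KO Flk1+ and F/F Flk1- cannot be ranked. For Lefty2 the step below it, 0.14, was within that scatter too (SD 0.22). Both KO arrays were above both F/F arrays for these 4 of the 8 members, against 12.5% of 10955 genes. This count rests on the same middle step, which exceeded the scatter for Lefty1 only, at 0.76 (SD 0.25). Gdf3 was above the floor in the Flk1- fraction only, so its order over the 4 arrays is not described. The shares over all genes include genes with values below the floor on some arrays.

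By sort, Cer1 and Gdf3 were the members that passed 2-fold. In KO cells Gdf3 was 2-fold or more lower in the Flk1+ fraction by its brighter probe set, 1 of 8 members against 2.17% of 10688 genes. In F/F cells Cer1 and Gdf3 were, 2 of 8 against 1.51% of 10622 genes, but with values under the floor raised to it Gdf3 was no longer 2-fold apart in F/F cells, at -0.44. On the higher side 0 of 8 passed in either genotype, against 1.62% of genes in KO and 1.2% in F/F cells. The sort difference of Cer1 was -0.65 in KO and -2.13 in F/F cells, and only 25 of 10622 genes were further down in F/F cells. Lefty1 differed by sort by -0.84 in KO and -0.35 in F/F cells, and Lefty2 by -0.59 in KO and -0.14 in F/F cells. The genotype difference in Flk1+ cells and the sort difference in F/F cells share the F/F Flk1+ array, so the low Cer1 value on that array enters both.

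The genotype differences of the fractions were also subtracted, Flk1+ minus Flk1-. Cer1 had 1.48, with 19 of 10955 genes further up, and it was the only member at 1 or more in size, 1 of 8 on the positive side against 0.749% of genes and 0 of 8 on the negative side against 0.831%. Its second probe set gave 2.47. Nodal had 0.25, while Lefty1 and Lefty2 had -0.49 and -0.45. Gdf3 had -0.71, a value that rests on Flk1+ levels below the floor. With 1 array per group this difference was not tested.

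**Figure D3:**
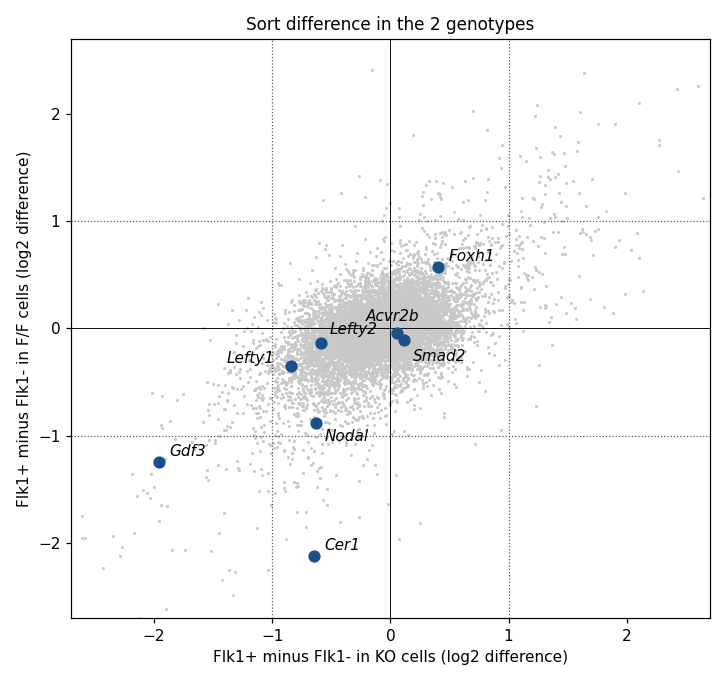
Flk1+ minus Flk1- log2 differences in KO cells (horizontal axis) and in F/F cells (vertical axis) for genes above the floor on at least 1 array (grey, 10955 genes, of which 40 lie outside the axes) and for the 8 members (blue). Dotted lines mark 2-fold. Gdf3 lies beyond 2-fold on the lower side of both axes, but its Flk1+ values are below the floor and against the floor its F/F difference is -0.44. Cer1 lies beyond 2-fold in F/F cells only, and Foxh1 is on the positive side of both axes.

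Other genes of the pathway were counted in the same way. A list of 30 further ligands, convertases, receptors, Smads, cofactors and antagonists had 27 measured members and 24 above the floor. In each of the 4 comparisons 23 were tested and 0 were 2-fold apart in either direction. Over all genes 1.85% were 2-fold apart between genotypes in Flk1+ and 1.34% in Flk1- cells, and 3.79% by sort in KO and 2.7% in F/F cells, so counts of 0 are near the background. The median genotype difference was -0.11 in Flk1+ cells, with 6 higher and 17 lower, beside -0.05 over all genes. In Flk1- cells it was -0.03, with 9 higher and 14 lower, beside 0.04 over all genes.

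Among the receptors, all 4 tested were lower in KO Flk1+ cells by their brightest probe sets, with a median of -0.28. Over all genes 42.5% were higher in this comparison. The 3 probe sets of Tgfbr1 ranged from -0.03, the value counted, to 0.35. The EGF-CFC co-receptor Cfc1 was at 5.74 in KO Flk1+ and 6.23 in F/F Flk1+ cells, and at 5.88 in KO Flk1- and 6.30 in F/F Flk1- cells. The type I receptor gene Acvr1b was at -0.35 in Flk1+ cells, with 0.01 by its other probe set, and the type II receptor gene Acvr2a was at 0.51 in Flk1- cells. Of the 10 Smads and cofactors, Smad7, an inhibitory Smad induced by TGF-beta family signals, was furthest from 0 at -0.80 in Flk1+ and -0.56 in Flk1- cells, the corepressor Tgif1 was at 0.48 and 0.34, and Skil, which encodes a Smad corepressor, was at 0.40 in Flk1- cells. Among the other antagonists the pseudoreceptor Bambi was at -0.79 in Flk1+ and -0.47 in Flk1- cells, and Dact2 at 0.35 and 0.48, although the Dact2 probe sets ranged from -0.05 to 0.48 in Flk1- cells. Of the convertases that cut the Nodal precursor or related ones, Pcsk5 was at -0.57 in Flk1+ cells, with its KO value at the floor, and Pcsk6 at 0.22. In Flk1- cells Pcsk6 was at -0.10 and Furin at -0.01.

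A list of 14 genes known to respond to Nodal had 11 measured members and 10 above the floor. In Flk1+ cells 7 of the 10 were higher and 3 lower in the KO, with a median of 0.63, beside -0.05 over all genes. In Flk1- cells 10 of 10 were higher by their brightest probe sets, with a median of 0.46, beside 0.04 over all genes. Of all genes tested 42.5% were higher in Flk1+ and 56.8% in Flk1- cells. In Flk1- cells Mixl1 was at 0.08, and the 3 Ccnd1 probe sets ranged from -0.22 to 0.46. The head and epiblast transcription factor gene Otx2 was the 1 of 10 that was 2-fold higher in Flk1+ cells, against 0.873% of all genes. Otx2 was at 8.12 in the KO and 7.11 in F/F cells, a difference of 1.01. The anterior endoderm homeobox gene Hhex was the 1 of 10 that was 2-fold higher in Flk1- cells, against 0.389%. Hhex was at 7.42 in the KO and 6.35 in F/F cells. This list is not separate from the marker lists below. Otx2 is also in the primed epiblast list, and Foxa2, Sox17 and Hhex are also in the endoderm list.

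Pluripotency genes had a higher mean in the KO in both fractions and a lower one in Flk1+ than in Flk1- cells. Of 14 pluripotency genes 13 were measured and 12 were above the floor, and their mean log2 level was 4.61 in KO Flk1+ and 3.79 in F/F Flk1+ cells, and 6.43 in KO Flk1- and 5.82 in F/F Flk1- cells. Their median sort difference was -2.08 in KO and -2.19 in F/F cells, beside -0.61 and -0.25 for the 8 members. In Flk1+ cells 6 of 10 were 2-fold higher in the KO, against 0.873% of all genes. Tbx3 was 2-fold lower, against 0.976%, and Klf4 and Fgf4 were at -0.22 and -0.12. The 4 Fgf4 probe sets ranged from -0.12 to 0.21 in Flk1+ and from 0.17 to 1.12 in Flk1- cells. In Flk1- cells 1 of 12 was 2-fold higher, against 0.389% of all genes. This was Esrrb, at 1.72, with -0.08 by its other probe set. Esrrb, Zfp42 and Tcl1 were below the floor in KO Flk1+ cells, and those and Sox2 and Dppa3 in F/F Flk1+ cells. Tcl1 was below it on all 4 arrays. The primed epiblast list, with 7 of 8 genes above the floor, averaged 7.48 in KO Flk1+ and 6.44 in F/F Flk1+ cells, and 8.04 in KO Flk1- and 7.38 in F/F Flk1- cells. The part of these cells in the differences of the members was not tested.

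Endoderm markers, of interest beside Cer1, averaged 5.47 in KO Flk1+ and 5.33 in F/F Flk1+ cells, and 5.40 in KO Flk1- and 5.57 in F/F Flk1- cells, over 10 genes above the floor of 13 listed. In Flk1+ cells 6 of the 10 were higher and 4 lower in the KO, beside 42.5% of all genes higher. In Flk1- cells 4 of 9 were higher and 5 lower, beside 56.8% higher. Ttr, a marker of visceral endoderm, was at 4.79 in KO Flk1+ and 6.89 in F/F Flk1+ cells. Its genotype difference was -2.10 in Flk1+ and -2.68 in Flk1- cells, with -0.60 and -1.97 by its other probe set. Ttr was the lowest of the list in Flk1+ cells. Sox17, a marker of endoderm, was the highest there, with a genotype difference of 0.96. The visceral endoderm genes Amn and Cubn were below the floor on all 4 arrays. Fibroblast markers, listed as a check for carried-over feeder cells, had 3 of 8 genes above the floor on any array, Col1a1, Col3a1 and Pdgfrb. Their mean was 4.19 in KO Flk1+ and 5.82 in F/F Flk1+ cells, and 3.40 in KO Flk1- and 4.30 in F/F Flk1- cells. In Flk1+ cells their genotype differences were -2.55, -2.06 and -0.27, with -0.43 by the other Col3a1 probe set. Thy1, Lum, Dcn, Fap and Col1a2 were below the floor on all 4 arrays. Hemato-endothelial genes, 10 of 10 above the floor on at least 1 array, averaged 5.51 in KO Flk1+ and 5.72 in F/F Flk1+ cells. In KO Flk1- and F/F Flk1- cells they averaged 3.14 and 3.53. Etv2, Tal1 and Fli1 were below the floor in both Flk1- groups, and Cdh5 in F/F Flk1- cells. The list includes Kdr, which defines the sort, so part of the gap between fractions was set by the sort. The part of any of these cell types in the results was not tested.

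**Figure D4:**
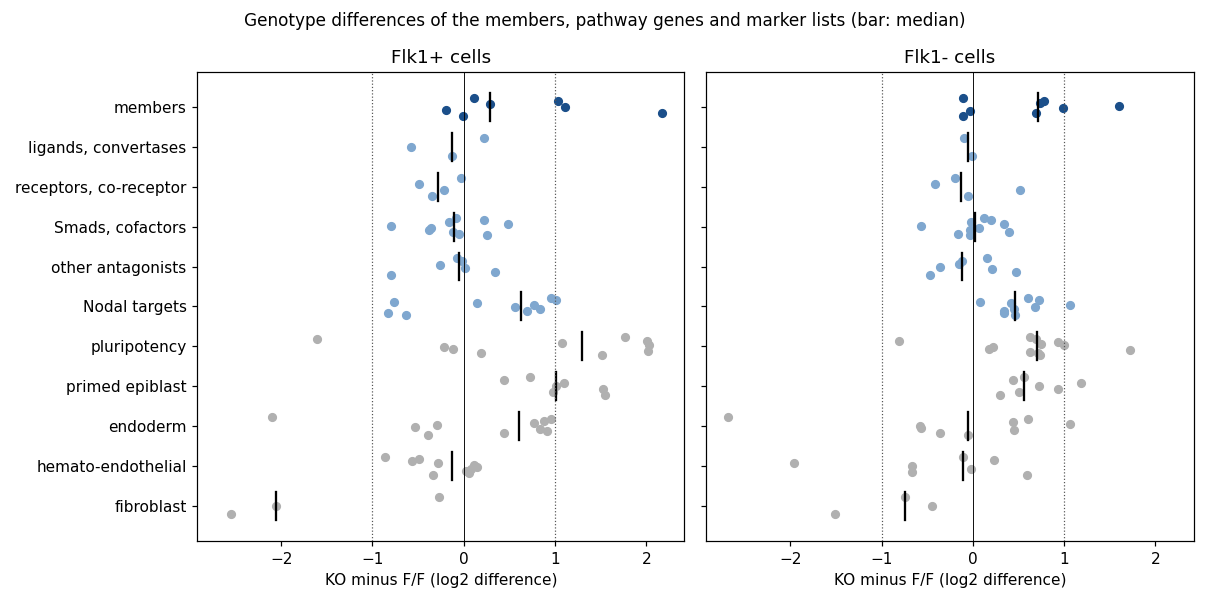
KO minus F/F log2 differences (horizontal axis) in Flk1+ cells (left) and Flk1- cells (right) for the members (dark blue), pathway and target lists (light blue) and marker lists (grey). Each point is a gene above the floor on at least 1 of the 2 arrays, bars are medians, and dotted lines mark 2-fold. Genes of the 4 pathway lists stay within 2-fold in both fractions, while pluripotency genes have medians of 1.30 and 0.70.

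The genes whose 4 values most resembled those of a member were ranked by Euclidean distance between log2 profiles, each centred on its own mean, among 10954 other genes above the floor. The 4 arrays are few, so this is a description. Nearest to Nodal were Shroom3, Tox3, Otx2, Slc7a7 and Sox17, at distances of 0.094 to 0.15. Otx2 and Sox17 are also in the list of Nodal-responsive genes, but Otx2 is in the primed epiblast list and Sox17 in the endoderm list as well. Seen from Nodal, Lefty1 was 241st, Lefty2 334th and Cer1 2178th. Nearest to Lefty1 were Mgst1, Abcc4, Hsbp1l1, Prss12 and Slc39a2, from 0.28 to 0.48. Nodal was 15th nearest to Lefty1, at 0.60, but 66th to Cer1, 270th to Gdf3 and 4506th to Lefty2. Cer1 was nearest to Enpp3, Fzd5, Irs4, Cdh1 and Pga5, at 0.20 to 0.39. Among them Cdh1, the epithelial cadherin, was at 7.84 in KO Flk1+ and 6.05 in F/F Flk1+ cells, and at 8.63 in KO Flk1- and 7.76 in F/F Flk1- cells. Gdf3 was nearest to Manba, Dppa4, Gtsf1l, Kndc1 and Zfp936, at 0.22 to 0.27, and Dppa4 is one of the pluripotency genes above. Lefty2, whose 4 values spanned only 0.88, was nearest to Rinl, Sorl1, Slc43a2, Fuca1 and Defa21, at 0.072 to 0.11. Of these, Rinl was above the floor in KO Flk1- cells only. Distances are smaller where a profile is flatter, so they do not rank the members against each other.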

How the data were processed

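The deposited file held log2 expression values for 45037 probe sets beside 104 control probe sets, which were left out. RMA and limma were used by the authors, per the submitters' processing notes, whose text gave neither versions nor roles here. Per the labels' protocols, 50 ng of total RNA went into a NuGEN cDNA amplification, and the product was biotinylated. The log2 values were used as deposited.

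The platform annotation used here gave a single gene for 28898 probe sets, more than 1 gene for 551, which stayed unnamed, and none for 15588. Of the 17097 genes, 16936 had an identifier in the RefSeq gene table. The probe set with the highest mean stood for its gene. Differences, floor and counts were computed with Python 3.11.15 and pandas 2.3.3, and other normalizations with limma 3.58.1 in R 4.3.3.

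Named were all members, listed pathway genes 2-fold apart between genotypes or otherwise the 2 furthest from 0. The 5 properly named genes nearest to a member's profile were named too. Some marker genes were named beside their list. The members and lists were chosen with earlier results of these data known. The alternatives were other floors, size rules, normalizations and probe set choices.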

Additional observations from a re-analysis of the deposited data

How the results depend on the processing

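The count of members 2-fold apart between genotypes in Flk1+ cells was 3, and it was 2 with averaged probe sets per gene (Nodal was lost) and 1 at a 3-fold rule (Cer1). Of 10655 genes, 26 were higher and 33 lower at 3-fold. In Flk1- cells the count of members was 1, and it was 2 with cyclic loess, which added Gdf3. It was 5 there at a 1.5-fold rule, against 5.51% of 10533 genes in either direction. By sort it was 1 in KO cells and 5 at 1.5-fold, against 15% of 10688 genes at 1.5-fold in either direction. In F/F cells it was 2, and it was 1 with the floor at the median, with the mean of probe sets, at 3-fold, or with values under the floor raised to it, an alternative chosen after seeing the data. Of 10622 genes, 47 were higher and 55 lower at 3-fold in F/F cells. Gdf3 was the member lost each time. With the floor at the median it was not among the 7 members tested, with the mean of probe sets it was at -0.95, and with values raised to the floor at -0.44. The difference of differences had 1 member at 1 or more in size, 2 at 1.5-fold and 0 at 3-fold. For this difference 10.9% of 10955 genes passed 1.5-fold in either direction, and 17 were higher and 8 lower at 3-fold. The cause of the added Gdf3 call with loess was not tested. Of 40 member differences, 13 moved by more than the SD between probe sets with the mean of probe sets, 3 with values set to the floor, and 0 with quantile normalization, median centring or cyclic loess. The called differences kept their sign under these 5 alternatives. The other floors, and leaving out probe sets whose design can match several transcripts, left every member's value as it was and so bear only on which genes were tested. Cer1 in Flk1+ cells ranged from 2.18 to 2.69, and Lefty1 from 1.11 to 1.18 in Flk1+ and from 1.54 to 1.60 in Flk1- cells.

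Centring on the median of detected genes moved the median difference of all genes by 0.16 in the KO sort comparison and by 0.12 in the difference of differences. The splits of genes 2-fold higher and lower were then 120 and 84 for genotype in Flk1+ cells (93 and 104 as deposited), 223 and 147 for the KO sort (173 and 232) and 119 and 52 for the difference of differences (82 and 91). Cyclic loess gave 99 and 71 for the last. The mean of probe sets gave 57 and 56. No paired analysis was possible because each group has 1 array, and no replicate could be left out.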

Other observations

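Of the 10 Nodal-responsive genes tested in Flk1+ cells, Eomes, Mixl1 and Ccnd1 were the 3 that were lower in the KO. Other genes of the primitive streak and its derivatives in the list were higher, with Foxa2 at 0.84, Fgf8 at 0.70, Gsc at 0.57 and Lhx1 at 0.15, and the cell cycle gene Ccnd1 was at -0.63. Eomes and Mixl1 are described because of their values. Eomes, a T-box factor of the streak, was at 6.39 in KO Flk1+ and 7.21 in F/F Flk1+ cells, and at 6.39 in KO Flk1- and 6.05 in F/F Flk1- cells. Its 2 probe sets gave genotype differences of -0.85 and -0.82 in Flk1+ cells. Mixl1, a homeobox gene of the streak, was at 4.55 in KO Flk1+ and 5.31 in F/F Flk1+ cells, and at 4.14 in KO Flk1- and 4.06 in F/F Flk1- cells. For both genes F/F Flk1+ was the high array, whereas for Nodal and Cer1 it was the low one. By sort Eomes and Mixl1 differed by -0.0044 and 0.42 in KO cells and by 1.17 and 1.26 in F/F cells. None of these differences has a replicate check.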
